A study of Mus musculus with 9 samples.

Results

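Atp6v0d2 and Trim9 are 2 of the 49671 genes in the count tables, and they were chosen by their measured values: they had the largest rises of 24-month against adult melanocyte stem cells (McSC). Their levels in those groups are therefore given as a description, with no test. RNA came from KIT+CD45- cells of dermis, sorted from female C57BL/6 mice into 9 libraries. KIT is a receptor of melanocyte lineage cells and CD45 a marker of immune cells. The groups were melanoblasts, which are melanocyte precursors, at postnatal day 0.5 (n = 3), quiescent McSC of adult mice at 8 to 10 weeks (n = 4) and quiescent McSC of mice at 24 months (n = 2), called aged McSC here. Hair follicles of adult and aged skin were resting (telogen). The labels name no engineered allele, and each library pooled cells of several animals, so that each p-value rests on the spread among such pools. The in-house C57BL/6J stock supplied the newborn and adult mice, while the aged mice came from the National Institute on Aging colony at 21 months, so age and colony cannot be told apart.

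Atp6v0d2 encodes the d2 form of subunit d of the V-ATPase, the rotary proton pump that acidifies lysosomes, endosomes and melanosomes. Subunit d joins the membrane sector V0 to the central stalk of the cytosolic ATP-hydrolysing sector V1. The d1 form is made in nearly all cells, whereas d2 is known from osteoclasts, macrophage-lineage cells, kidney intercalated cells and epididymis. Trim9 encodes an E3 ubiquitin ligase best known from neurons, where it binds the netrin receptor DCC, the actin polymerase VASP and the SNARE protein SNAP25, and restrains exocytosis and axon branching until netrin arrives. Its nearest relative is Trim67.

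Libraries of melanoblasts held 23688288 to 33710117 counts, those of adult McSC 19956424 to 21572026 and those of aged McSC 12594770 to 16362560. Of these, 21.5% to 37.6% fell on mitochondrial rRNA. Levels are given in CPM, counts per megacount of the library after TMM scaling. Markers of the melanocyte lineage were abundant in every library. The summed level of 12 lineage markers was 15057 to 27227 CPM in melanoblasts, 4532 to 11125 CPM in adult McSC and 7596 to 9067 CPM in aged McSC, none was at 0, and 10 of 12 fell from melanoblasts to adult McSC by edgeR (median log2 fold change -1.80, 9 falls with factors taken from abundant genes). Between adult and aged McSC 0 of 12 passed by edgeR (1 at an unadjusted p under 0.05). Nnt, a gene known to be disrupted in C57BL/6J, averaged 14.5 ± 1.95 CPM in adult (SD, n = 4) and 11.2 ± 1.43 CPM in aged McSC (SD, n = 2), with no call between them (edgeR adjusted p = 0.652).

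Atp6v0d2 (ENSMUSG00000028238) lies on the minus strand of chromosome 4 at 19876841 to 19922605 (mm10), with 2716 exon bases, and no other annotated gene overlaps it. It was close to absent in melanoblasts, low in adult McSC and among the most abundant transcripts of aged McSC. The melanoblast libraries held 13, 20 and 1 counts, or 0.809, 1.04 and 0.0502 CPM. The adult libraries held 266, 303, 272 and 277 counts, or 10.4, 13.0, 11.2 and 11.5 CPM. The aged libraries held 2750 and 2676 counts, or 111 and 155 CPM. The 3 groups did not overlap at either step, a pattern shared by 2.64% of the 31961 genes tested. Every adult library lay above every melanoblast library for 19.5% of genes, and every aged library above every adult library for 15.5%.

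Group means were 0.634 ± 0.519 CPM in melanoblasts (SD, n = 3), 11.5 ± 1.08 CPM in adult McSC (SD, n = 4) and 133 ± 30.9 CPM in aged McSC (SD, n = 2). The ratio of means was 18.2 for adult over melanoblast and 11.5 for aged over adult. Even the lowest aged library stood 8.58 times above the highest adult one, while the 2 aged libraries differed from each other by 1.39 times. Among 19503 protein-coding genes ordered by CPM per kilobase of exon within a library, Atp6v0d2 had 3.6% to 36.0% of genes below it in melanoblasts, 72.2% to 73.8% in adult McSC and 98.8% and 99.1% in aged McSC. It ranked 234th and 167th from the top in the aged libraries.

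The adult against melanoblast contrast did not choose the genes, although its adult libraries also entered the contrast that did. Atp6v0d2 rose from melanoblasts to adult McSC with a log2 fold change of 4.20 (SE 0.413, edgeR quasi-likelihood adjusted p = 6.50e-08, higher in 4 of 4 adult libraries). In that contrast 33.4% of genes passed, with 15.1% rising and 18.3% falling, so a call alone is common there. The median log2 fold change over all genes was 0.39, well under that of Atp6v0d2. The call held in 18 of 18 alternative settings, with log2 fold changes of 3.62 to 5.04. For aged against adult McSC, 0.303% of genes passed, 0.0532% rising and 0.25% falling. The log2 difference of Atp6v0d2 there was 3.53, which repeats what chose it.

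**Figure D1:**
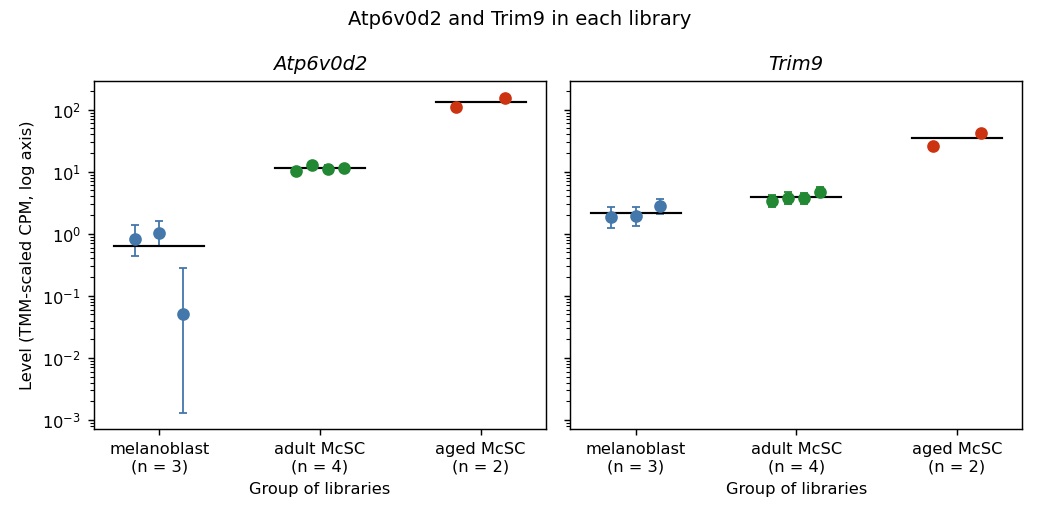
Levels of Atp6v0d2 and Trim9 in each library, in TMM-scaled CPM on a log axis, by group. Points are libraries with exact Poisson 95% intervals (counting error only) and black lines are group means; Atp6v0d2 steps up at both ages, from about 0.634 to 11.5 to 133 CPM, whereas Trim9 stays between 1.87 and 4.70 CPM until the aged libraries at 26.0 and 42.8 CPM.

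Reads of the d1 and d2 genes can be told apart by sequence. Their coding sequences were 1050 and 1053 bases long and 65.9% identical when aligned, and the longest run shared by any of their annotated transcripts was 17 bases, tatggcaacttcctggc, against reads of 126 bases. The stretch shown is coding bases 93 to 182 of each (GENCODE transcripts, 5′ to 3′). It was picked as the most alike stretch of its length in the alignment without gaps, so other stretches differ as much or more. It also holds the longest shared run. Capitals mark the 19 bases that differ.
Atp6v0d2: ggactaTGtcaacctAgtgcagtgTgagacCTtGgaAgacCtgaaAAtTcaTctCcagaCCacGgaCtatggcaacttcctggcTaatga
Atp6v0d1: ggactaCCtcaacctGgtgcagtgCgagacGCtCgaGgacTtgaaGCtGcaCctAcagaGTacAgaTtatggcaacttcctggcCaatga

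Atp6v0d1 (ENSMUSG00000013160, minus strand of chromosome 8, 105524465 to 105566047) took the opposite course. Its libraries held 130, 131 and 70.1 CPM in melanoblasts, 22.5, 35.6, 28.7 and 39.8 CPM in adult McSC, and 28.2 and 16.8 CPM in aged McSC. It fell from melanoblasts to adult McSC (log2 fold change -1.80, SE 0.259, edgeR adjusted p = 9.49e-06) and did not pass between adult and aged McSC (log2 fold change -0.49, edgeR adjusted p = 0.578). The adult and aged libraries of Atp6v0d1 overlapped.

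Per kilobase of exon, d2 supplied 0.0473% to 0.522% of the summed d1 and d2 level in melanoblasts, 16.04% to 23.3% in adult McSC, and 72.2% and 85.9% in aged McSC. The sum itself was 39.1 to 73.5 CPM per kilobase in melanoblasts, 16.4 to 26.5 in adult McSC, and 56.7 and 66.4 in aged McSC. Transcripts of subunit d were thus mostly of the d1 form in all melanoblast and adult libraries and mostly of the d2 form in both aged libraries. These shares rest on the aged values that chose Atp6v0d2 and carry no test.

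**Figure D2:**
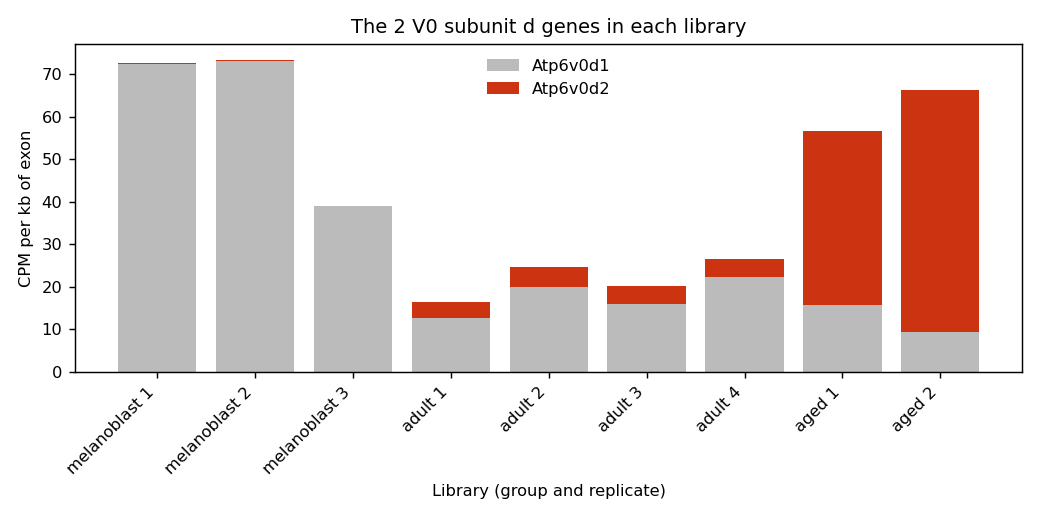
Level of Atp6v0d1 and Atp6v0d2 in each library, in CPM per kilobase of exon, stacked as bars from 0. The d2 part is barely visible in the 3 melanoblast bars, makes 16.04% to 23.3% of the adult bars and 72.2% and 85.9% of the aged bars.

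With TMM scaling, the other genes of the pump mostly fell from melanoblasts to adult McSC and showed no call afterwards. In that contrast 15.1% of all genes rose and 18.3% fell, the shares to set beside each list below. Of 33 other V-ATPase genes 32 were tested: 2 rose, 21 fell and 9 did not pass between melanoblasts and adult McSC, with a median log2 fold change of -1.0 against 0.39 over all genes. Scaling on abundant genes (factors from the 4393 genes above a mean log2 CPM of 5), which shifts the all-gene median to 1.17, gave 7 rises and 10 falls, with a median of -0.20. Between adult and aged McSC, where 0.303% of all genes passed, 0 of 32 passed by edgeR (3 at an unadjusted p under 0.05, smallest adjusted p = 0.328), with log2 fold changes from -0.75 to 0.83. DESeq2 also called 0 and limma voom called 2, Atp6v1g2 and Atp6v0b.

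In the membrane sector V0, 7 of 9 other subunits fell and 1 rose from melanoblasts to adult McSC. Atp6v0a1, the a1 form of the subunit that forms the proton half-channels, went from 466 to 183 CPM (log2 fold change -1.35, edgeR adjusted p = 3.56e-04) and stood at 169 CPM in aged McSC. Atp6v0a4, the a4 form known from kidney and inner ear, rose from 1.93 to 5.71 CPM (log2 fold change 1.56, edgeR adjusted p = 0.0114) and averaged 8.62 CPM in aged McSC. Tcirg1, the a3 form on which osteoclasts depend, averaged 13.9, 13.5 and 10.8 CPM in melanoblasts, adult and aged McSC.

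In the cytosolic sector V1, 6 of 12 subunits tested fell and 1 rose. Atp6v1b2, the widely made form of the nucleotide-binding B subunit, went from 378 to 134 CPM (log2 fold change -1.50) and averaged 103 CPM in aged McSC. Atp6v1c2, a tissue-restricted form of the stator subunit C, rose from 0.965 to 5.20 CPM (log2 fold change 2.42, edgeR adjusted p = 1.69e-04) and averaged 4.31 CPM in aged McSC. The kidney form Atp6v1b1 averaged 2.99, 5.67 and 6.91 CPM in the 3 groups and passed neither test. Of 11 accessory and assembly genes 8 fell and 0 rose, among them the receptor subunit Atp6ap2 (log2 fold change -1.34, but -0.51 and no call with scaling on abundant genes, edgeR adjusted p = 0.055). With scaling on abundant genes the counts were 2 up and 3 down for V0, 4 up and 6 down for V1, and 1 up and 1 down for accessory genes.

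On the scale of CPM per kilobase, Atp6v0d2 was the highest of the 23 V0 and V1 subunit genes in aged McSC at 49.0. Atp6v0a1 followed at 25.8 and Atp6v1g1 at 22.6, with Atp6v0d1 at 12.6. In adult McSC Atp6v0d2 stood at 4.24 on this scale, and in melanoblasts at 0.233.

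**Figure D3:**
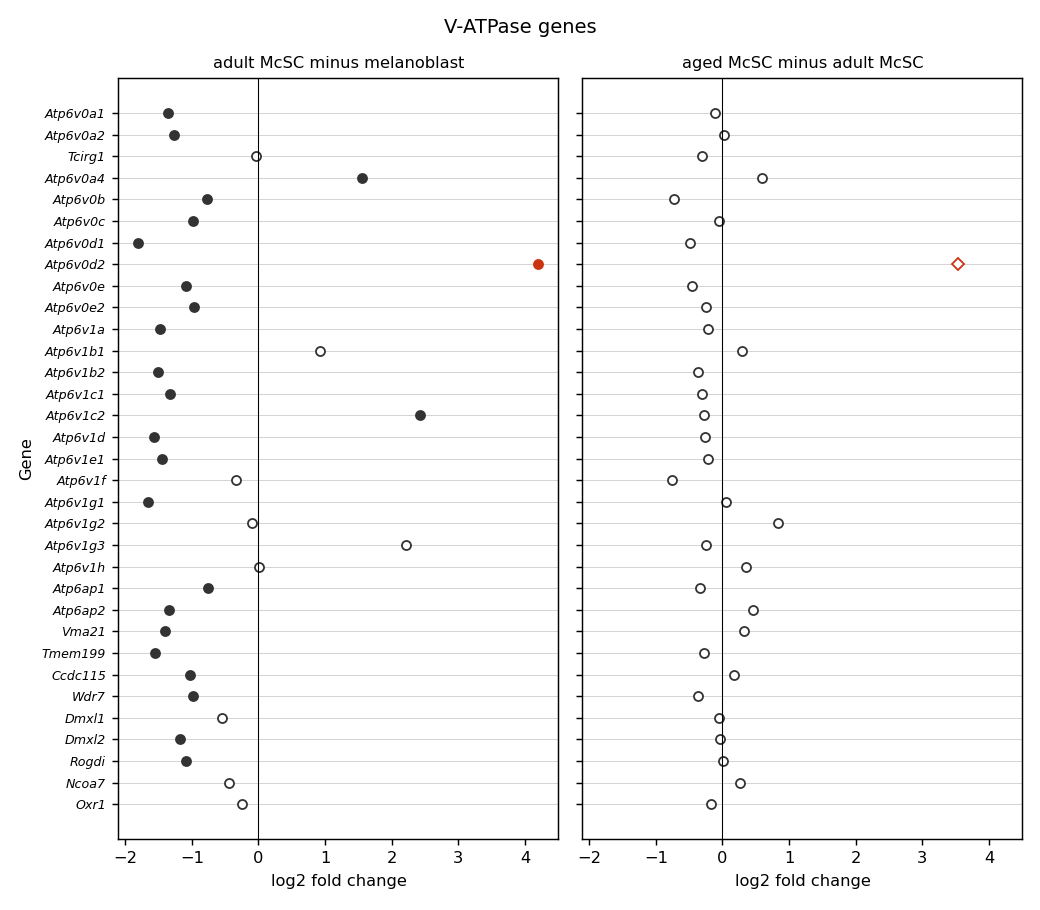
Log2 fold changes of the V-ATPase genes, adult minus melanoblast and aged minus adult McSC, grouped by sector. Filled points passed edgeR's adjusted p of 0.05 and open points did not; Atp6v0d2 is in red, as an open diamond where the contrast chose it and no test is read. With TMM scaling most genes lie left of 0 in the first contrast (7 rose and 10 fell with scaling on abundant genes) and within -0.75 to 0.83 in the second, with Atp6v0d2 far right in both.

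Genes tied to d2 in other cells were looked up next. Between adult and aged McSC, where 0.303% of all genes passed, a count of 0 calls in a short list is the usual outcome. The MiT/TFE factors drive lysosomal and, for Mitf, melanocyte genes. Mitf fell from melanoblasts to adult McSC (1023 to 480 CPM, log2 fold change -1.09, edgeR adjusted p = 0.00235) and averaged 597 CPM in aged McSC. With scaling on abundant genes that fall was -0.30 and did not pass (edgeR adjusted p = 0.14), and 1 of 4 factors rose. The other 3 factors did not pass, and 0 of 4 passed between adult and aged McSC by edgeR (0 at an unadjusted p under 0.05).

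Of 14 osteoclast genes 4 rose and 3 fell from melanoblasts to adult McSC (5 and 1 with scaling on abundant genes). The 4 that rose were Acp5, the acid phosphatase of osteoclasts (0.608 to 2.96 CPM, log2 fold change 2.27), Tnfrsf11a, the receptor of RANKL (1.44 to 5.58 CPM, log2 fold change 1.94), the integrin Itgb3 (log2 fold change 0.99) and the transcription factor Nfatc1 (log2 fold change 0.60). The call of Nfatc1 was lost with RLE factors (0.59, edgeR adjusted p = 0.0659). From adult to aged McSC 0 of 14 passed by edgeR (2 at an unadjusted p under 0.05). The median log2 fold change there was 0.12, against 0.08 over all genes. The fusion gene Dcstamp averaged 0.775 CPM in adult and 0.855 CPM in aged McSC, and Ocstamp 0.495 and 1.59 CPM (log2 fold change 1.66, edgeR adjusted p = 0.482). Mmp9 (1.34), Siglec15 (1.30) and Oscar (1.25) also had positive log2 fold changes that did not pass. Their levels were low, at 0.788, 0.209 and 1.07 CPM in adult and 2.00, 0.520 and 2.55 CPM in aged McSC. Nfatc1 (-0.73), Ostm1 (-0.31), Itgb3 (-0.29), Clcn7 (-0.20), Acp5 (-0.20) and Calcr (-0.10) had negative ones that did not pass either. The summed level of the list, its most abundant gene being Nfatc1, was 183 to 267 CPM in melanoblasts, 154 to 200.3 CPM in adult McSC and 132 to 141 CPM in aged McSC.

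Markers of other cell types that make d2 were present at low levels, although the sort against CD45 would remove macrophages and dendritic cells. The summed level of 14 macrophage and dendritic cell markers was 31.4 to 45.9 CPM in melanoblasts, 47.8 to 73.1 CPM in adult McSC and 71.4 to 88.5 CPM in aged McSC. Cd68, a lysosomal glycoprotein of macrophages, was the most abundant at 18.4, 24.4 and 38.0 CPM in the 3 groups, and the CD45 gene Ptprc averaged 1.70, 5.74 and 6.89 CPM. From melanoblasts to adult McSC 5 of 14 rose (6 with scaling on abundant genes) and 0 fell, and between adult and aged McSC 0 of 14 passed by edgeR (3 at an unadjusted p under 0.05). None of the 14 was at 0 in any library.

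The 9 ionocyte and intercalated cell markers summed to 4.53 to 15.5 CPM in melanoblasts, 11.2 to 22.7 CPM in adult McSC and 23.4 to 33.3 CPM in aged McSC. Of these 1 rose from melanoblasts to adult McSC (3 with scaling on abundant genes), and Ascl3 was at 0 in at least 1 melanoblast library. Between adult and aged McSC 0 of 9 passed by edgeR (2 at an unadjusted p under 0.05). All 9 had positive log2 fold changes there, from 0.45 to 1.77, with a median of 0.69 against 0.08 over all genes. Mast cells carry KIT, but also CD45, by which the sort would remove them, and their 9 markers summed to 20.3 to 34.3, 10.3 to 15.8 and 12.6 to 14.2 CPM in the 3 groups. Of 8 mast cell markers tested 2 fell from melanoblasts to adult McSC (1 rose and 1 fell with scaling on abundant genes) and 0 passed afterwards by edgeR (1 at an unadjusted p under 0.05), with Fcer1a at 0 in an adult and an aged library. The part of these cell types in the Atp6v0d2 values was not tested. In bulk libraries, a change in the share of cells that make a transcript and a change in RNA per cell cannot be told apart.

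Markers of skin neighbours also differed between groups, in a first contrast where 33.4% of all genes passed. Schwann cell markers summed to 355 to 615 CPM in adult and 83.7 to 89.9 CPM in aged libraries (101 to 105 CPM in melanoblasts), with 5 of 9 rising into adult McSC (8 when scaled on abundant genes) and 5 of 9 falling from adult to aged McSC. Fibroblast markers summed to 586 to 2139, 480 to 944 and 123 to 236 CPM in the 3 groups, with 1 rising and 5 falling (1 and 1 when scaled on abundant genes), and then 3 of 9 falling. Keratinocyte markers summed to 73.7 to 220 CPM in melanoblasts, 932 to 2051 CPM in adult McSC and 756 to 877 CPM in aged McSC (9 of 9 rose, then 0 passed, 4 at an unadjusted p under 0.05). Endothelial markers summed to 58.6 to 98.6, 85.8 to 296 and 59.4 to 70.5 CPM (4 of 10 rose, 7 when scaled on abundant genes, then 0 passed, 6 at an unadjusted p under 0.05). The falls into aged McSC numbered 3 for Schwann cells and 0 for fibroblasts when scaled on abundant genes. The part of these cells in the members' values was not tested.

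Trim9 (ENSMUSG00000021071) lies on the minus strand of chromosome 12 at 70244533 to 70347614, with 14203 exon bases. It is overlapped by 2 annotated genes on the opposite strand, Gm48747 within it and Gm32151 across its start. Neither Gm48747 nor Gm32151 has an entry in the count tables. Whether the counting used strand is not given, and without strand their reads cannot be told apart from those of Trim9. Trim9 was low in melanoblasts and adult McSC and several times higher in both aged libraries. The melanoblast libraries held 30, 37 and 55 counts, or 1.87, 1.93 and 2.76 CPM. The adult libraries held 86, 89, 90 and 113 counts, or 3.35, 3.81, 3.71 and 4.70 CPM. The aged libraries held 642 and 740 counts, or 26.0 and 42.8 CPM. Groups did not overlap at either step, but the lowest adult library stood only 1.21 times above the highest melanoblast library, and the lowest aged library 5.52 times above the highest adult one.

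Means of Trim9 were 2.19 ± 0.499 CPM in melanoblasts (SD, n = 3), 3.89 ± 0.575 CPM in adult McSC (SD, n = 4) and 34.4 ± 11.9 CPM in aged McSC (SD, n = 2). The ratio of means was 1.78 for adult over melanoblast and 8.83 for aged over adult, and the 2 aged libraries differed by 1.65 times. Its level per kilobase used 14203 exon bases, taken over all its annotated transcripts. On that scale 17.1% to 23.5% of protein-coding genes were below Trim9 in melanoblasts, 7.3% to 19.6% in adult McSC, and 54.1% and 69.7% in aged McSC.

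Trim9 passed the test between melanoblasts and adult McSC narrowly (log2 fold change 0.83, SE 0.298, edgeR adjusted p = 0.0348, higher in 4 of 4 adult libraries), in a contrast where 15.1% of genes rose. The call was lost in 6 of 18 alternative settings. It was lost by edgeR without melanoblast replicate 1 (adjusted p = 0.115), melanoblast replicate 2 (adjusted p = 0.106), adult replicate 3 (adjusted p = 0.0561) or adult replicate 4 (adjusted p = 0.0961), and with only these 2 groups in the fit (adjusted p = 0.0824). The replicate number as a block also ended it (edgeR adjusted p = 0.11). All 18 settings kept the sign. The aged minus adult log2 difference of 3.14 repeats what chose the gene.

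Low levels of Trim9 in the younger groups were near those of genes with no known role in these cells. Of 970 olfactory and vomeronasal receptor genes tested, 353 were higher than Trim9 per kilobase in adult McSC, where Trim9 stood at 0.274 CPM per kilobase and the receptor genes had a median of 0.213. In melanoblasts Trim9 stood at 0.154 and 191 receptor genes were higher. In aged McSC it stood at 2.42 and 3 were higher, while 95% of receptor genes were under 0.825. Receptor genes as a group had a median log2 fold change of 1.71 from melanoblasts to adult McSC, with 270 rising, above that of Trim9. From adult to aged McSC their median was 0.13, 0 rose, and the largest was 2.15. Atp6v0d2 was above all 970 in adult and aged McSC and under 92 of them in melanoblasts.

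The start region of Trim9 is printed to show which textbook promoter words it holds. It is the RefSeq window of 250 bases before to 50 after the start (GRCm38.p6, chr12:70347565-70347864, minus strand, 5′ to 3′). Of 4 genes looked up, 3 matched an entry. Atp6v0d2 matched none, so its own start region was not searched for these words. Capitals mark TGAATCA, a match to the pattern TGANTCA, at base 266 of the window and a match to CAGCTG, an E-box, at base 18. The pattern allows any base in the middle, whereas the word bound by AP-1 has C or G there, so TGAATCA is not that word.
Trim9: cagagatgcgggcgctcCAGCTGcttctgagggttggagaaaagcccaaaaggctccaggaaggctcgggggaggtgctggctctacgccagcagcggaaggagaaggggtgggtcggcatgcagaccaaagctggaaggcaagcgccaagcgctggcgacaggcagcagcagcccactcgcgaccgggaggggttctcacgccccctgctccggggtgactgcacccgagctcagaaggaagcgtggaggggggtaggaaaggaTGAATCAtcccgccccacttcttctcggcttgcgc

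TGANTCA was in 7.8% and CAGCTG in 16.3% of 32851 such windows, both strands searched. GGGCGG, a GC-box, was also present once at base 275, as in 35.7% of windows. Searches for CACGTG (7.2% of windows), CATGTG (14.2%), TGACGTCA (1.8%) and TATAAA (13.6%) gave no match in the Trim9 window. CACGTG and CATGTG are words read by MITF and its relatives. The Atp6v0d1 window is shown beside it because it holds CACGTG, in capitals at base 248 (chr8:105566015-105566314, minus strand, 5′ to 3′).
Atp6v0d1: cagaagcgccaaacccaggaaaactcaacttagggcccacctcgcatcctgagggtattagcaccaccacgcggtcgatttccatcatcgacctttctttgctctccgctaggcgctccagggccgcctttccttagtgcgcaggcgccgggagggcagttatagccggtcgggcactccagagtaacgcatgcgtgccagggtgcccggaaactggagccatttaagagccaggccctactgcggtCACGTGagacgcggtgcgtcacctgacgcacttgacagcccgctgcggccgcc

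These matches describe letters only, and no binding was measured. The Trim67 window held GGGCGG at 6 places and none of the other 6 words.

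Trim67 (ENSMUSG00000036913, plus strand of chromosome 8, 124793092 to 124834713) is the other ligase of this pair. It held 2.24, 2.97 and 5.87 CPM in melanoblasts, 6.62, 2.22, 1.94 and 2.71 CPM in adult McSC and 9.58 and 6.77 CPM in aged McSC. Adult replicate 1 stood apart from the other adult libraries, close to the lower aged one. Trim67 did not pass from melanoblasts to adult McSC (log2 fold change -0.13, edgeR adjusted p = 0.831, but 0.65 with scaling on abundant genes) or from adult to aged McSC (log2 fold change 1.28, edgeR adjusted p = 0.370). Limma voom called the latter.

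Trim9 supplied 22.4% to 33.9% of the summed Trim9 and Trim67 level per kilobase in melanoblasts, 23.7% to 54.1% in adult McSC, and 62.5% and 79.6% in aged McSC. The coding sequences of 2451 and 2304 bases were 73.9% identical over their alignment. The longest run shared by any of their transcripts, gacagcggctatggctcctac, had 21 bases, so reads of 126 bases can be told apart here too.

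The other 5 genes of TRIM subfamily C-I, which share a microtubule-binding COS box, included 1 that rose and 1 that fell from melanoblasts to adult McSC, where 15.1% and 18.3% of all genes did. Mid1, the ligase altered in Opitz syndrome, rose from 21.3 to 55.8 CPM (log2 fold change 1.39, edgeR adjusted p = 5.05e-04) and averaged 87.0 CPM in aged McSC. Mid2 fell from 172 to 76.2 CPM (log2 fold change -1.17). Scaling on abundant genes gave 3 that rose and 1 that fell. Between adult and aged McSC 0 of 5 passed by edgeR (2 at an unadjusted p under 0.05).

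Among netrin pathway genes other than Trim9, 24 of 25 were tested. From melanoblasts to adult McSC 4 rose, 12 fell and 8 did not pass (15.1% of all genes rose and 18.3% fell), with a median log2 fold change of -0.56. Scaling on abundant genes gave 6 rises and 7 falls, with a median of 0.27. Between adult and aged McSC, where 0.303% of all genes passed, 0 of 24 passed by edgeR (5 at an unadjusted p under 0.05, smallest adjusted p = 0.160), with a median of -0.24 against 0.08 over all genes. DESeq2 called Unc5a, and limma voom called Rac1, Unc5a, Dscaml1 and Trim67.

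The ligands were low apart from Ntn4, a netrin of basement membranes, which rose from 1.65 to 13.8 CPM (log2 fold change 3.08, edgeR adjusted p = 1.23e-07) and averaged 11.5 CPM in aged McSC. Ntn1, the ligand of DCC, averaged 6.72, 5.94 and 5.82 CPM and did not pass in either contrast. Of 4 ligand genes tested 1 rose and 0 fell, also with scaling on abundant genes.

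Of 8 receptors 2 rose and 3 fell from melanoblasts to adult McSC, and 3 rose and 0 fell with scaling on abundant genes. Dcc, whose protein TRIM9 binds, averaged 1.13, 2.06 and 1.62 CPM and did not pass (edgeR adjusted p = 0.191). Its relative Neo1, the most abundant receptor, went from 485 to 251 CPM (log2 fold change -0.95, edgeR adjusted p = 0.00202, but -0.14 with scaling on abundant genes) and averaged 249.5 CPM in aged McSC. Unc5a, a repulsive netrin receptor, fell from 5.12 to 1.17 CPM (log2 fold change -2.12, but no call with scaling on abundant genes) and averaged 4.18 CPM in aged McSC.

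Downstream effectors mostly fell into adult McSC: of 12 tested 9 fell and 1 rose, and 7 fell and 2 rose with scaling on abundant genes. Dock1, an exchange factor for the GTPase RAC1, fell from 522 to 147 CPM (log2 fold change -1.83, edgeR adjusted p = 1.17e-06). Rac1 itself fell from 1123 to 371 CPM (log2 fold change -1.60) and the Src-family kinase Fyn from 128 to 42.0 CPM (log2 fold change -1.61). Pak1, a kinase activated by RAC1, rose from 3.96 to 9.64 CPM (log2 fold change 1.28, edgeR adjusted p = 0.00331). Vasp, whose protein TRIM9 ubiquitinates, averaged 25.4, 11.6 and 7.68 CPM, and its fall (log2 fold change -1.14) was not called with scaling on abundant genes. Between adult and aged McSC 0 of 12 passed by edgeR (4 at an unadjusted p under 0.05).

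**Figure D4:**
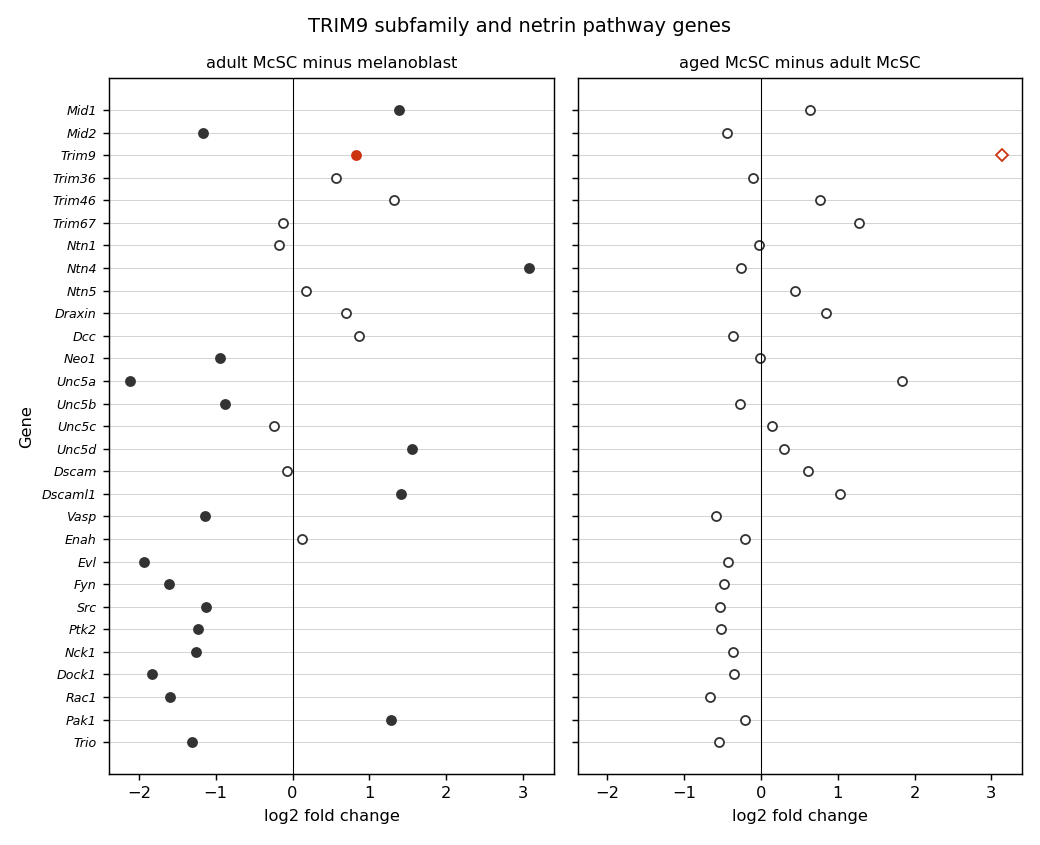
Log2 fold changes of TRIM subfamily C-I and netrin pathway genes, adult minus melanoblast and aged minus adult McSC. Filled points passed edgeR's adjusted p of 0.05 and open points did not; Trim9 is in red, as an open diamond where the contrast chose it and no test is read. No other gene passed in the second contrast, where Unc5a has the next largest value at 1.84.

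Exocytosis genes were the SNARE proteins and exocyst subunits, among which TRIM9's partner SNAP25 belongs. Of 16 such genes 1 rose and 6 fell from melanoblasts to adult McSC, where 15.1% and 18.3% of all genes did. Scaling on abundant genes gave 4 rises and 1 fall. Snap25 averaged 0.456, 0.761 and 1.53 CPM and passed neither test, while its widely made relative Snap23 averaged 81.5, 39.2 and 52.1 CPM. Vamp3, a vesicle SNARE, fell from 238 to 58.2 CPM (log2 fold change -2.03). Syt1, a calcium sensor of vesicle release, rose from 0.622 to 2.82 CPM (log2 fold change 2.16). Per kilobase Syt1 stood at 0.0746 and 0.338, where the olfactory and vomeronasal receptor genes had medians of 0.0642 and 0.213. Those receptor genes had a median log2 fold change of 1.71 in that contrast. From adult to aged McSC 0 of 16 passed by edgeR (2 at an unadjusted p under 0.05).

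TRIM9 also binds the beta-TrCP proteins and acts on NF-kB and interferon signalling. Of 8 genes of that machinery 1 rose and 4 fell from melanoblasts to adult McSC, and 2 rose and 1 fell with scaling on abundant genes. Nfkbia, the NF-kB inhibitor, rose from 20.0 to 48.3 CPM (log2 fold change 1.27) and the kinase Gsk3b fell from 730.1 to 305 CPM (log2 fold change -1.26). From adult to aged McSC 0 of 8 passed by edgeR (0 at an unadjusted p under 0.05).

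Markers of neurons, the best known source of Trim9, had their highest sums in the aged libraries, as did ionocyte and intercalated cell markers. The 14 neuronal markers summed to 23.0 to 35.6 CPM in melanoblasts, 39.3 to 48.0 CPM in adult McSC and 56.5 to 60.1 CPM in aged McSC. Adult and aged libraries did not overlap, and 15.5% of all genes had every aged library above every adult library. Map2, of the dendrite cytoskeleton, was the most abundant at 5.68, 11.4 and 13.8 CPM. Over the 14 markers the aged minus adult log2 fold changes ran from -0.78 to 1.34, with a median of 0.29. From melanoblasts to adult McSC 3 rose and 1 fell (7 and 0 with scaling on abundant genes), and between adult and aged McSC 0 of 14 passed by edgeR (3 at an unadjusted p under 0.05). Nefl was at 0 in at least 1 melanoblast library. The 8 Merkel cell markers summed to 8.59 to 12.2, 23.9 to 31.2 and 26.2 to 28.8 CPM (2 rose, 5 with scaling on abundant genes, then 0 passed, 3 at an unadjusted p under 0.05), with Atoh1 and Sox2 at 0 in at least 1 melanoblast library. The part of these cells in the Trim9 values was not tested.

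The genes whose log2 CPM ran most like each member over the 9 libraries were different for both. For Atp6v0d2 they were Rorb (Pearson r 0.974), Krt10 (0.971), Jam2 (0.970), S100a8 (0.970) and Casp1 (0.966), among 11577 genes. Rorb, a nuclear receptor, averaged 12.4, 33.0 and 64.6 CPM, so its steps were much smaller than those of Atp6v0d2. For Trim9 they were Btbd19 (0.960), Map7d2 (0.948), Unc5cl (0.920), Dbndd2 (0.917) and Bglap3 (0.916). The members themselves had r = 0.832 with each other, which placed Trim9 372nd among the genes most like Atp6v0d2 and Atp6v0d2 74th among those most like Trim9. All points share the same libraries and scaling, and the likeness follows the 3 groups.

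The 3 nearest protein-coding genes on each side of Atp6v0d2 had log2 fold changes of -0.46 to 0.94 between adult and aged McSC. The nearest, Slc7a13, 34.6 kb away, had 0.04, and Ttpa, 85.3 kb away on the other side, had -0.14. Around Trim9 the values were -0.75 to 0.64. Pygl, the liver glycogen phosphorylase gene 13.0 kb away, had 0.53, and Tmx1, 105 kb away, had 0.06. None of the 12 neighbours passed by edgeR (adjusted p from 0.354 to 0.991), in a contrast where 0.303% of all genes passed.

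**Figure D5:**
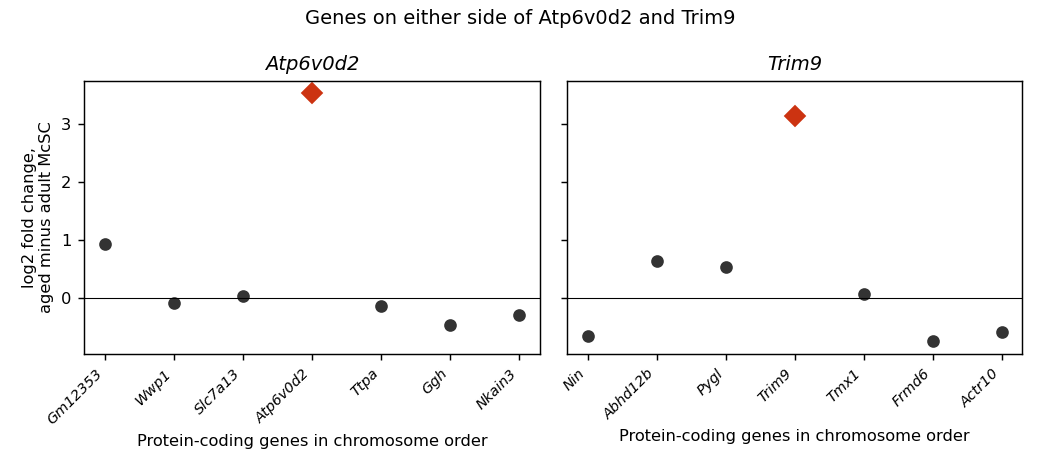
Aged minus adult McSC log2 fold change of the 3 nearest protein-coding genes on each side of Atp6v0d2 and Trim9, in chromosome order. Atp6v0d2 and Trim9 (red diamonds) stand at 3.53 and 3.14, and the 12 neighbours lie between -0.75 and 0.94.

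From adult to aged McSC 17 genes rose past the threshold. After both members, the next 3 of these by log2 difference with a group mean of at least 2 CPM were Ctnnd2 (log2 difference 2.44, 8.04 to 43.6 CPM), Nexn (2.18, with 14.2 and 94.7 CPM in the aged libraries) and Fut9 (2.08, 3.01 to 12.8 CPM). Among genes of that level not past the threshold, Gm10222 (2.75) and Gm26905 (2.51) had the largest differences. Their aged libraries were far apart, at 0.364 and 5.15 CPM for Gm10222 and at 1.42 and 12.8 CPM for Gm26905.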

How the data were processed

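RNA-seq of 9 libraries was used. Per the labels' protocols, total RNA was amplified with the Ovation RNA-Seq System V2 before TruSeq library construction, so transcripts may be copied unequally and molecules were not counted. The authors' tools were, per the submitters' processing notes, DESeq2 1.22.2, SAMtools 1.9, STAR 2.5.2, FastQC 0.11.8 and Trimmomatic 0.36, on mm10. Counting program, annotation and strand setting: not given in the sources used here. The deposited files hold unnormalized counts by Ensembl gene. Within groups, pairs of libraries differed by 15.2 to 63.3 in chi-square per degree of freedom, far beyond sampling noise.

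With R 4.3.3, edgeR 4.0.16 (TMM, filterByExpr, robust quasi-likelihood F test, all 9 libraries in a group means model) tested 31961 of 49671 genes, with Benjamini-Hochberg adjustment at 0.05. Procedures were tested on simulated data. Symbols, coordinates and exon lengths came from GENCODE for GRCm38, and promoter windows from RefSeq. A prior count of 2 was used for log2 CPM.

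The members, the 11 pathway lists and the 10 marker lists were chosen with earlier results of these data known. The values of 1 listed gene are not reported here. The naming rule picked both members, the genes just inside and outside their rule, the 5 genes most like each among those averaging at least 5 CPM in a group, the 3 neighbours on each side, and list genes that passed or were most abundant. Further listed genes, among them Ocstamp, Tcirg1 and Snap25, were described outside that rule. Alternatives were RLE factors, factors from genes above a mean log2 CPM of 5, no mitochondrial rRNA, no filter, a filter of 5 CPM in 2 libraries, DESeq2 1.42.0, limma 3.58.1 (voom), only the 2 groups compared, a replicate block and leaving out each library. Limma voom was run with sample quality weights and robust moderation of variances.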

Additional observations from a re-analysis of the deposited data

Results flagged for a closer look

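Of the 94 genes that the naming rule above picked, 9 had 1 adult library far from the other 3. The gap to the nearest was over 0.829 of the group's range. The remaining listed genes were not checked in this way. Chance gives such a gap in about 1 in 20 groups. Neither Atp6v0d2 nor Trim9 was among them. Trim67 stood at 6.62 CPM in adult replicate 1 against 1.94 to 2.71 CPM in the others, so the Trim9 share of the pair was lowest there. Among the V-ATPase genes, Atp6v1b2 stood at 185 CPM in adult replicate 2 (110.1 to 122 CPM in the others) and Ccdc115 at 6.69 CPM in adult replicate 3 (11.3 to 11.8 CPM). The osteoclast gene Acp5 stood at 5.16 CPM in adult replicate 3 (2.14 to 2.33 CPM). Of the exocytosis genes, Vamp3 stood at 41.1 CPM (62.9 to 64.8 CPM) and Snap23 at 32.1 CPM (41.1 to 41.9 CPM) in adult replicate 1, and Exoc5 at 77.7 CPM in adult replicate 2 (54.0 to 56.0 CPM). Bglap3, one of the genes most like Trim9, stood at 3.74 CPM in adult replicate 1 (2.75 to 2.91 CPM). Gm12353, a neighbour of Atp6v0d2, stood at 0.250 CPM in adult replicate 4 (0.536 to 0.584 CPM).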

How the results depend on the processing

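The rise of Atp6v0d2 from melanoblasts to adult McSC held in 18 of 18 settings (3.62 to 4.83 with 1 library left out). That of Trim9 was lost with only the 2 groups in the fit (0.91), with the replicate block (0.74) and on leaving out melanoblast replicate 1 or 2 or adult replicate 3 or 4 (0.73 to 1.03 over all libraries left out). The aged minus adult log2 difference of Atp6v0d2, 3.53, was 3.83 when scaled on abundant genes, 3.73 with the stricter filter, 3.26 with the replicate block and 3.31 to 3.72 with 1 library left out. That of Trim9, 3.14, was 2.77 to 3.43 with 1 library left out. The lowest values of both came without aged replicate 2. For all genes, the count of 97 between adult and aged McSC was 45 with scaling on abundant genes, 343 with no filter, 339 by DESeq2, 1520 by limma voom, 311 with only the 2 groups and 172 with the replicate block. It ran from 13 without aged replicate 2 to 303 without melanoblast replicate 3, with 46 and 49 without adult replicates 1 and 3. The count of 10676 between melanoblasts and adult McSC was 6877 with the stricter filter, which tested 13639 genes, and 8056 to 14059 with 1 library left out. Its split was 10574 up and 1840 down with scaling on abundant genes, and 5827 up and 4883 down without mitochondrial rRNA, against 4836 and 5840. V-ATPase calls between adult and aged McSC were 2 by limma voom, and netrin pathway calls were 1 with no filter, 1 by DESeq2 and 4 by limma voom. The causes of these shifts were not tested. By Spearman's rho, 2 of the 5 genes most like Atp6v0d2 and 0 of the 5 most like Trim9 were kept.

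Replicate numbers in the titles were shared between groups, but deviations from group means of same-numbered libraries correlated at only -0.08 to 0.20, so the numbers were not taken to pair the libraries. The replicate block moved the count of calls from 97 to 172 and from 10676 to 9035.

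With 2 aged libraries from 1 colony, the aged level of both members rests on 2 pools. In melanoblasts the 34 counts of Atp6v0d2 over 3 libraries limit the precision of its ratios, and intervals cover counting error only.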
